A study of Mus musculus with 4 samples.

Results

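The 10 genes described here, *H19*, *Meg3*, *Rian*, *Mirg*, *Grb10*, *Ndn*, *Peg3*, *Impact*, *Igf2r* and *Plagl1*, are imprinted genes of the mouse, most of them with a known part in growth control, and were looked up by symbol among the 19354 genes listed for sorted HSCs. Of the 10, 9 had a row and *Mirg* had none. Of the 9, 6 averaged 1 or more in counts-per-million (CPM) over the 4 libraries and were compared between genotypes, and *H19*, *Rian* and *Plagl1* were listed below that level. The comparison was of HSCs lacking *Id2*, an inhibitor of basic helix-loop-helix transcription factors, with HSCs that keep it. All mice carried the *Mx1-Cre* transgene, whose promoter answers to interferon in many cell types besides HSCs, and all received pIpC, which switches the recombinase on. Controls were *Mx1-Cre* *Id2*+/+ mice (*Id2*+/+, labelled WT) and the others *Mx1-Cre* *Id2*fl/fl mice, in which the floxed gene is removed (*Id2*Δ/Δ, labelled ID2KO). Marrow cells with the phenotype of an HSC (LSK, FLT3-, CD48- and CD150+) were sorted 2 weeks after pIpC from mice 8 to 16 weeks old. Over 2 experiments, 14 *Id2*+/+ mice and 15 mice with the floxed gene were pooled, and each genotype gave 2 libraries. The labels do not say which experiment or which mice a library holds, so p-values measure the spread between these libraries, which may be technical.

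An imprinted gene is read mainly from the copy inherited from a single parent. Which copy is read goes back to DNA methylation laid down in the germ line. In the mouse, *H19*, *Meg3*, *Rian*, *Mirg*, *Grb10* (in most tissues) and *Igf2r* are read from the maternal copy, and *Ndn*, *Peg3*, *Impact* and *Plagl1* from the paternal copy. Several of these genes restrain or promote growth through insulin-like growth factor (IGF) signalling. Long-term HSCs are known for high levels of maternally expressed members such as *H19* and *Meg3*. In these libraries *H19* stood at percentile 3.38 and *Meg3* at percentile 29.7 of all listed genes by mean CPM. The libraries measure the summed RNA of both copies, so imprinting itself was not measured.

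The sequences below are shown because DNA methylation is written on CpG dinucleotides and because ID proteins oppose factors that bind the E-box, CANNTG. Whether these stretches lie in a germ-line imprint was not looked up. The marked CpG are not a map of imprints. Start sites from RefSeq (GRCm38.p6) were used for 8 members, and *H19* and *Impact* were not included. These 8 members had 10 promoters of 250 bases before and 50 bases after a start site. The 250 bases before the start are printed 5′ to 3′ for 3 of them. For *Grb10* (chr11:12037421-12037670, minus strand) and *Meg3* (chr12:109540746-109540995, plus strand) the capitals mark CpG, of which these stretches hold 40 and 10. For *Igf2r* (chr17:12769707-12769956, minus strand) the capitals mark the 4 matches to CANNTG.
Grb10: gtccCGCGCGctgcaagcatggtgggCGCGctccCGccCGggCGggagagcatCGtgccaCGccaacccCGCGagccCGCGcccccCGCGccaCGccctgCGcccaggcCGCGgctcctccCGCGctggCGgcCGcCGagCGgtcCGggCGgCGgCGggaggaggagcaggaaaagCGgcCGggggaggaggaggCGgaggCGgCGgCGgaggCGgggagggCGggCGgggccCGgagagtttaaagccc
Meg3: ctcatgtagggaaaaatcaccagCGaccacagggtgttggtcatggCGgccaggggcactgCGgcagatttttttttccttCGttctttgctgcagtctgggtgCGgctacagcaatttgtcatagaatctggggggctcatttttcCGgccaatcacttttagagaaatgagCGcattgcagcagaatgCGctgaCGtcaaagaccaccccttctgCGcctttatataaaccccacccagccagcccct
Igf2r: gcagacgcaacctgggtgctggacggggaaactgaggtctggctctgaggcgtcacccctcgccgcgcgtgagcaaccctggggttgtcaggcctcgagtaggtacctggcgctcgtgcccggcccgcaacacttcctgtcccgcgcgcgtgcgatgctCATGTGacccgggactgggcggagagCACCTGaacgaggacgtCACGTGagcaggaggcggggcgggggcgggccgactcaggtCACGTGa
Over its whole promoter, this *Grb10* start had 45 CpG, and 98.1% of 32817 RefSeq promoters of that length have fewer. The other *Grb10* start had 9, *Igf2r* 34, *Plagl1* 26, *Meg3* 13 and 1 at its starts, *Peg3* 13, *Ndn* 11, *Mirg* 10 and *Rian* 0, against a median of 7 over all promoters. CANNTG, which reads the same on both strands, occurred in 6 of the 10 promoters and in 72.3% of all promoters, so the motif does not set these promoters apart. It was absent from the *Grb10* and *Meg3* stretches printed above. A match to these letters is a description and not a binding site.
*H19* is also the host transcript of miR-675, whose mature strands (RefSeq GRCm38.p6, minus strand, chr7:142577112-142577133 and chr7:142577078-142577099) are given with the seed, bases 2 to 8, in capitals. Small RNAs were not measured here, so the reads below are those of the host gene alone.
mmu-miR-675-5p: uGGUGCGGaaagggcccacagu
mmu-miR-675-3p: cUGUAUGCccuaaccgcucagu

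Values are log2 CPM as deposited, and are given throughout in the order *Id2*+/+ replicate 1, *Id2*+/+ replicate 2, *Id2*Δ/Δ replicate 1 and *Id2*Δ/Δ replicate 2. Below 32 CPM the whole number of reads behind a value could be recovered. The depths of the 4 libraries, estimated from the listed values, were 14200000, 15700000, 17800000 and 18800000 reads. A count of 0 allows up to 3 reads, which is 0.159 to 0.211 CPM at these depths. Intervals on reads are 95% exact intervals and, like this limit, cover counting error only. *Id2* itself had 93, 98, 0 and 0 reads, a loss of at least 37.0-fold, as the libraries are labelled. Its log2 difference was -7.31 (standard error 1.06, adjusted p = 0.91 by limma with Benjamini-Hochberg adjustment). Even this loss was thus not called, so an adjusted p of 0.91 here is no sign that a gene is unchanged. Over all tested genes the *Id2*Δ/Δ libraries had a Pearson correlation of 0.942 with each other and the *Id2*+/+ libraries one of 0.972, across genes, which are not independent replicates. Between genotypes it was 0.95 to 0.964, so the *Id2*Δ/Δ libraries were less alike than libraries of different genotypes. Gene positions below are those of GENCODE M21 on GRCm38.

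None of the 6 tested members passed the test between genotypes, and for 5 of the 6 the libraries of the genotypes overlapped. *Grb10*, *Impact*, *Ndn* and *Igf2r* were expressed in every library at 21.5 CPM or more. *Meg3* and *Peg3* were read at 6 to 82 reads a library and varied widely within a genotype, and *H19*, *Rian* and *Plagl1* had 0 to 33 reads a library. Over all 15895 genes tested with limma, 0 (0%) had a Benjamini-Hochberg adjusted p under 0.05, and 742 (4.67%) had an unadjusted p under 0.05. Of the members, 0 of 6 did either.

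**Figure D1:**
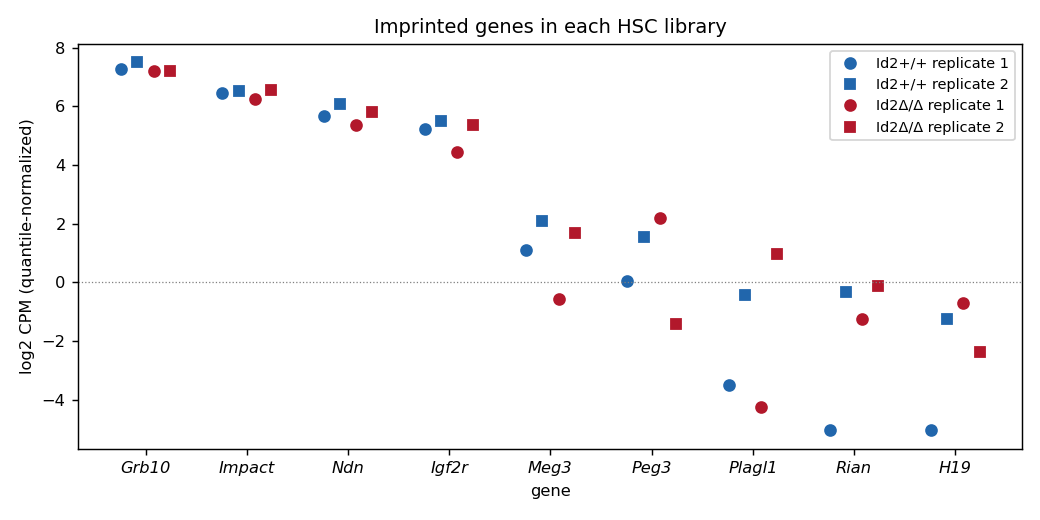
Level of each of the 9 listed members in each library on the log2 CPM scale, with genotype by colour, replicate by symbol and a dotted line at 1 CPM. *Grb10*, *Impact*, *Ndn* and *Igf2r* form the upper range, each spanning between 0.29 (*Grb10*) and 1.08 (*Igf2r*) log2. *Meg3*, *Peg3*, *Plagl1*, *Rian* and *H19* spread over several log2 units.

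The members fell into an abundant and a scarce group. By mean CPM among all listed genes, *Grb10* stood at percentile 93.0, *Impact* at 83.7, *Ndn* at 73.2 and *Igf2r* at 64.7. *Meg3* stood at percentile 29.7, *Peg3* at 27.8, *Plagl1* at 13.4, *Rian* at 9.94 and *H19* at 3.38. To compare levels between genes, CPM was divided by the length of the longest annotated transcript. On this log2 CPM per kilobase scale *Grb10* averaged 4.96, *Impact* 4.53, *Ndn* 3.84 and *Igf2r* 1.98, and in this order no 2 neighbours overlapped over the 4 libraries. They were followed by *Peg3* at -2.52, *Meg3* at -2.78, *H19* at -3.53, *Plagl1* at -4.20 and *Rian* at -4.70. Each of these 5 overlapped its neighbour in the order, so their order is not resolved. With the median transcript length in place of the longest, *Igf2r* came before *Ndn* and the order of the scarce genes changed, while *Grb10* and *Impact* kept their places.

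*Grb10* encodes an adaptor that binds the activated insulin and IGF1 receptors and dampens their signal. It lies on chr11:11930508-12038683, minus strand (ENSMUSG00000020176.17). Its values were 7.27, 7.50, 7.21 and 7.22, or 155, 181, 148 and 149 CPM. The *Id2*Δ/Δ libraries were the lower pair, and *Id2*+/+ replicate 2 stood above the other 3. The means were 7.39 ± 0.16 (SD, n = 2) and 7.21 ± 0.01 (SD, n = 2), control first here and below, a log2 difference of -0.17 (standard error 0.13, 95% interval -0.47 to 0.13, adjusted p = 0.91 by limma with Benjamini-Hochberg adjustment). *Grb10* was the only tested member whose genotypes did not overlap. Among all tested genes 34.8% did not overlap in either direction and 15.8% did not overlap with the *Id2*Δ/Δ libraries lower, so 1 of 6 members is near that background. Without *Id2*+/+ replicate 2 the difference was -0.06.

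*Igf2r* encodes the cation-independent mannose 6-phosphate receptor, which clears IGF2 from the cell surface and carries enzymes to the lysosome. It lies on chr17:12682406-12769664, minus strand (ENSMUSG00000023830.13). Its values were 5.23, 5.51, 4.43 and 5.36, or 37.4, 45.5, 21.5 and 41.2 CPM. *Id2*Δ/Δ replicate 1, with 384 reads, stood below the others, and *Id2*Δ/Δ replicate 2 lay between the *Id2*+/+ libraries. The means were 5.37 ± 0.20 (SD, n = 2) and 4.89 ± 0.66 (SD, n = 2), a log2 difference of -0.47 (standard error 0.30, 95% interval -1.18 to 0.24, adjusted p = 0.91 by limma with Benjamini-Hochberg adjustment). Without *Id2*Δ/Δ replicate 1 the difference was -0.0034. *Airn*, the noncoding RNA transcribed antisense across the start of *Igf2r* from the paternal copy, had 58, 51, 72 and 33 reads, and its lowest library was *Id2*Δ/Δ replicate 2, not replicate 1. Strand use in counting is not given in the sources used here, so reads where the genes overlap cannot be told apart.

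*Meg3*, *Rian* and *Mirg* are maternally expressed noncoding RNAs that lie one after the other on the plus strand in the *Dlk1-Dio3* domain and host microRNAs and small nucleolar RNAs. *Meg3* lies on chr12:109541001-109571726 (ENSMUSG00000021268.17), *Rian* on chr12:109603940-109661716 (ENSMUSG00000097451.9) and *Mirg* on chr12:109729764-109749460. RefSeq places 1 microRNA hairpin inside *Meg3*, 3 inside *Rian* and 14 inside *Mirg*. *Meg3* had 32, 68, 11 and 55 reads, which were listed at 1.12, 2.09, -0.55 and 1.68. *Id2*Δ/Δ replicate 1 was the lowest, and *Id2*Δ/Δ replicate 2 lay between the *Id2*+/+ libraries. Adjusted for depth, *Id2*Δ/Δ replicate 2 was 4.72-fold above replicate 1 (interval 2.44 to 9.99), and *Id2*+/+ replicate 2 was 1.93-fold above replicate 1 (interval 1.25 to 3.03). Summed over libraries, the *Id2*Δ/Δ reads, adjusted for depth, were 0.539 of the *Id2*+/+ reads (interval 0.389 to 0.743), a gap smaller than that between the *Id2*Δ/Δ replicates. The means were 1.61 ± 0.68 (SD, n = 2) and 0.56 ± 1.58 (SD, n = 2), a log2 difference of -1.04 (standard error 0.82, 95% interval -2.95 to 0.86, adjusted p = 0.91 by limma with Benjamini-Hochberg adjustment). Without *Id2*Δ/Δ replicate 1 the sign turned, to 0.07, and on the log2(CPM + 1) scale the difference was -0.62. *Gm26906*, a noncoding gene on the opposite strand within *Meg3*, had 5, 15, 2 and 12 reads.

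*Rian* had 0, 13, 6 and 15 reads, with overlapping ranges in the genotypes. *Id2*+/+ replicate 2 was at least 3.93-fold above *Id2*+/+ replicate 1, taking 3 reads for the 0. Summed over libraries, *Id2*Δ/Δ HSCs had 21 and *Id2*+/+ HSCs 13 reads, a depth-adjusted ratio of 1.32 (interval 0.63 to 2.87). *Rian* and *Meg3* were both higher in replicate 2 than in replicate 1 of each genotype. *Dlk1*, the paternally expressed coding gene of the domain, had 10, 11, 2 and 17 reads, also with *Id2*Δ/Δ replicate 1 lowest. *Rtl1* and *Dio3*, like *Mirg*, had no row, so 3 of the 6 genes of this domain were listed and 1 was tested.

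*H19*, a maternally expressed noncoding RNA next to *Igf2*, lies on chr7:142575529-142578143, minus strand (ENSMUSG00000000031.15). It had 0, 7, 10 and 3 reads, a mean of 0.317 CPM, the lowest of the 9 members. The *Id2*+/+ libraries alone spanned 0 to 7 reads, at least 2.12-fold, and the *Id2*Δ/Δ libraries lay between 3 and 10. The summed reads were 13 in *Id2*Δ/Δ and 7 in *Id2*+/+ HSCs, a depth-adjusted ratio of 1.52 (interval 0.562 to 4.49), so no difference was detectable at this depth. *Igf2*, the growth factor gene that shares its enhancers and is read from the paternal copy, had 15, 34, 20 and 13 reads. Its log2 difference was -0.64 (standard error 0.74), with overlapping libraries, and went from -1.15 without *Id2*+/+ replicate 1 to -0.13 without *Id2*+/+ replicate 2.

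**Figure D2:**
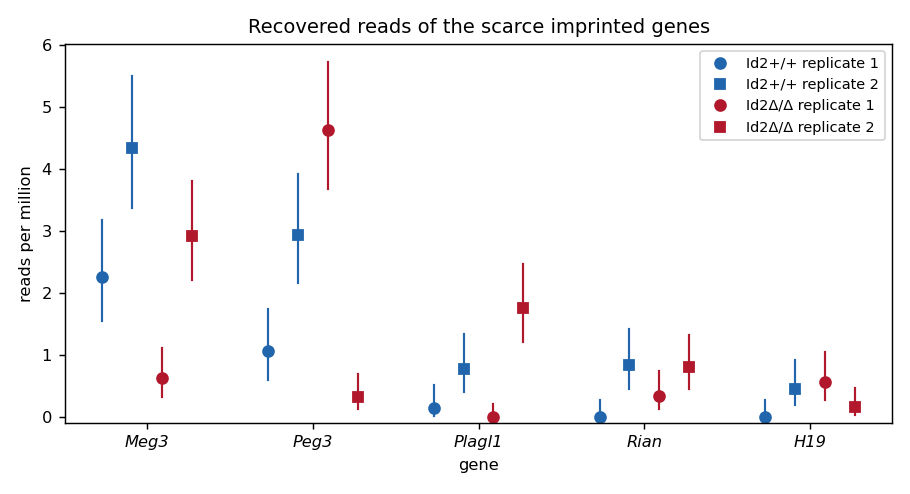
Recovered reads of *Meg3*, *Peg3*, *Plagl1*, *Rian* and *H19* divided by depth, in CPM, in each of the 4 libraries (colour for genotype, symbol for replicate), with 95% exact Poisson intervals as bars that cover counting error only. For *Meg3* and *Peg3* the intervals of the *Id2*Δ/Δ replicates do not meet, while 0 reads were found for *H19* and *Rian* in *Id2*+/+ replicate 1 and for *Plagl1* in *Id2*Δ/Δ replicate 1.

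*Peg3* encodes a zinc finger protein that restrains cell growth and has a part in p53-linked cell death. It lies on chr7:6703892-6730431, minus strand (ENSMUSG00000002265.16). It had 15, 46, 82 and 6 reads, which were listed at 0.06, 1.54, 2.21 and -1.40. Both the highest and the lowest library were *Id2*Δ/Δ, with the *Id2*+/+ libraries between them. *Id2*Δ/Δ replicate 1 was 14.5-fold above replicate 2, adjusted for depth (interval 6.38 to 40.6), and in *Id2*+/+ HSCs replicate 2 was 2.78-fold above replicate 1 (interval 1.53 to 5.36). The means were 0.80 ± 1.04 (SD, n = 2) and 0.40 ± 2.56 (SD, n = 2), a log2 difference of -0.40 (standard error 1.18, 95% interval -3.16 to 2.36, adjusted p = 0.963 by limma with Benjamini-Hochberg adjustment). The summed reads gave the opposite direction, 1.18 times as many, adjusted for depth, in *Id2*Δ/Δ HSCs (interval 0.84 to 1.66). Dropping *Id2*Δ/Δ replicate 2 gave 1.41, dropping *Id2*+/+ replicate 2 gave 0.34, and dropping *Id2*Δ/Δ replicate 1 gave -2.20, while on the log2(CPM + 1) scale the difference was -0.02. *Usp29*, *Zim1*, *Zim2*, *Zim3* and *Zfp264*, the other genes listed for the *Peg3* domain, had no row.

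*Ndn* encodes necdin, a MAGE family protein that binds p53 and E2F1 and is known in HSCs for limiting cell cycle entry. It is a gene of 1 exon on chr7:62346569-62350262, plus strand (ENSMUSG00000033585.5). Its values were 5.67, 6.07, 5.35 and 5.81. The lowest was *Id2*Δ/Δ replicate 1, and *Id2*Δ/Δ replicate 2 lay above *Id2*+/+ replicate 1. The means were 5.87 ± 0.28 (SD, n = 2) and 5.58 ± 0.33 (SD, n = 2), a log2 difference of -0.29 (standard error 0.22, 95% interval -0.80 to 0.21, adjusted p = 0.91 by limma with Benjamini-Hochberg adjustment). Without *Id2*Δ/Δ replicate 1 it came to -0.06, and with *Id2*+/+ replicate 2 dropped to -0.09. In the *Snrpn*-*Ndn* domain 7 of 9 genes were listed and tested, 2 with a difference above 0 and 5 below, with a median log2 difference of -0.17.

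*Plagl1* encodes ZAC1, a zinc finger protein that arrests the cell cycle and acts on other imprinted genes. It lies on chr10:13060504-13131694, plus strand (ENSMUSG00000019817.18). It had 2, 12, 0 and 33 reads, with the lowest and the highest library both *Id2*Δ/Δ. *Id2*Δ/Δ replicate 2 was at least 10.4-fold above *Id2*Δ/Δ replicate 1. Summed over libraries there were 33 *Id2*Δ/Δ and 14 *Id2*+/+ reads, a depth-adjusted ratio of 1.92 (interval 1.0 to 3.89), and every *Id2*Δ/Δ read came from replicate 2.

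*Impact* encodes a protein that binds GCN1 and holds back the kinase GCN2, which slows translation when amino acids run short. It lies on chr18:12955852-12992950, plus strand (ENSMUSG00000024423.5). Its values were 6.45, 6.51, 6.25 and 6.55, with the lowest and the highest library both *Id2*Δ/Δ. The means were 6.48 ± 0.04 (SD, n = 2) and 6.40 ± 0.22 (SD, n = 2), a log2 difference of -0.08 (standard error 0.15, 95% interval -0.43 to 0.28, adjusted p = 0.946 by limma with Benjamini-Hochberg adjustment). Without *Id2*Δ/Δ replicate 1 the sign turned, to 0.08. *Eif2ak4*, which encodes GCN2, had 6.01, 6.17, 6.0 and 5.98, a log2 difference of -0.10 (standard error 0.14) that came to -0.18 without *Id2*+/+ replicate 1 and -0.03 without *Id2*+/+ replicate 2. *Gcn1l1*, which encodes GCN1, had 7.20, 6.93, 6.56 and 6.93, a log2 difference of -0.32 (standard error 0.17) that came to -0.13 on dropping *Id2*Δ/Δ replicate 1, to -0.19 on dropping *Id2*+/+ replicate 1, and to -0.51 on dropping *Id2*Δ/Δ replicate 2. Of 4 genes of this pathway, 2 had a difference above 0 and 2 below, and none passed the test.

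**Figure D3:**
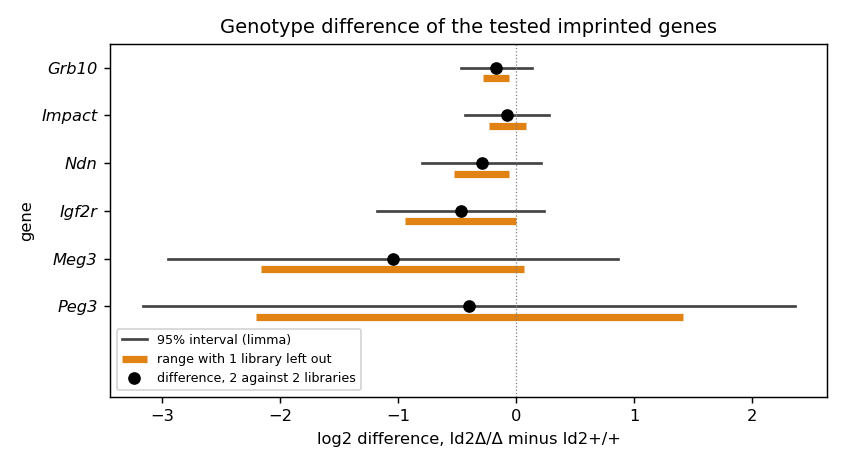
Log2 difference of *Id2*Δ/Δ from *Id2*+/+ HSCs for the 6 tested members, with the 95% interval from limma as a thin line and the range with each library dropped in turn as an orange bar. Every interval spans 0, the narrowest being that of *Grb10* (-0.47 to 0.13) and the widest that of *Peg3* (-3.16 to 2.36).

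All 6 differences were below 0, with a median of -0.35 against 0.011 over all tested genes, and 48.3% of all tested genes had a difference below 0. The median was -0.23 on the log2(CPM + 1) scale and -0.17 without the filter, where *H19*, *Rian* and *Plagl1*, each with a higher listed mean in the *Id2*Δ/Δ libraries, enter it. Its size also depended on single libraries. *Id2*Δ/Δ replicate 1 was the lowest of the 4 libraries for 5 of the 6 members, all but *Peg3*, against 30.2% of all tested genes. Without that library the median difference of the 6 was -0.03, and without *Id2*+/+ replicate 2 it was -0.08. The same 5 members were higher in replicate 2 than in replicate 1 in both genotypes, which held for 23.9% of all tested genes. These shares overlap in the libraries they use and are given without a test. The step from replicate 1 to replicate 2 was 0.97 in *Id2*+/+ and 2.23 in *Id2*Δ/Δ HSCs for *Meg3*, 0.28 and 0.94 for *Igf2r*, 0.40 and 0.47 for *Ndn*, 0.06 and 0.31 for *Impact*, and 0.23 and 0.01 for *Grb10*. For *Peg3* it was 1.48 and -3.61.

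**Figure D4:**
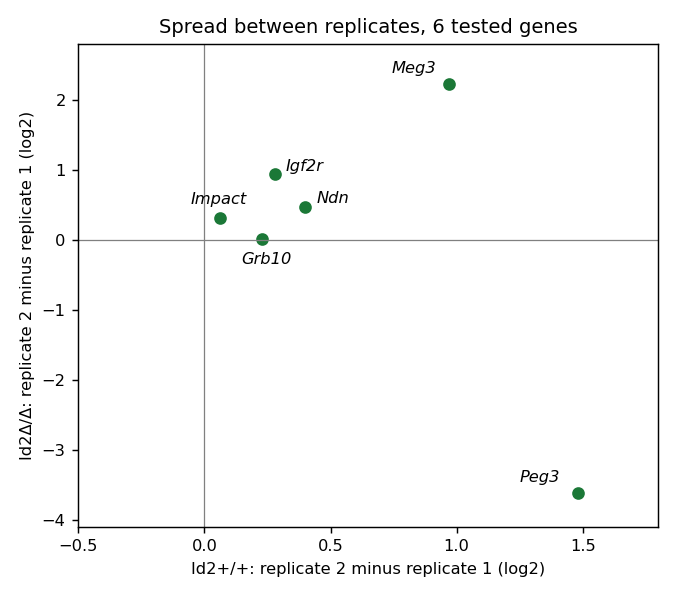
Log2 step from replicate 1 to replicate 2 in *Id2*+/+ HSCs (horizontal axis) and in *Id2*Δ/Δ HSCs (vertical axis), 1 point for each of the 6 tested members. *Grb10*, *Impact*, *Ndn*, *Igf2r* and *Meg3* lie where both steps are above 0, and *Peg3* lies at 1.48 and -3.61.

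Spread was set against genes of like level, those within 0.5 log2 of a member's mean. *Igf2r* ranged over 1.08 log2 across the 4 libraries, where genes of its level had a median range of 0.43, and *Ndn* over 0.73 against 0.36. *Meg3* ranged over 2.64 against 1.17 and *Peg3* over 3.61 against 1.35. The ranges of *Grb10*, 0.29, and *Impact*, 0.31, were near the medians of 0.28 and 0.32. By this measure *Igf2r*, *Ndn*, *Meg3* and *Peg3* stood at percentiles 91.7 to 98.1 of their level, *Grb10* at 53.3 and *Impact* at 48.0.

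The genes nearest in pattern were taken for the 3 tested members with the widest range, by the root mean square difference of centred log2 values over the 4 libraries. Nearest to *Meg3* was *Cdkn1a*, the cell cycle inhibitor p21, at 2.92, 3.88, 1.27 and 3.49, with a difference of 0.014. *Cxadr* (0.086) and *Pgap1* (0.105) followed. Nearest to *Igf2r* were *Abhd5*, *Podxl* and *Zfp568*, with differences of 0.019, 0.042 and 0.052. Nearest to *Peg3* were *2610204G07Rik* (0.273), *Cdnf* (0.289) and *Gm43597* (0.35). With 4 values a gene and 15895 genes to choose from, close patterns are a description only.

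Beyond the members, 65 further imprinted genes were looked up, of which 42 had a row and 36 were tested. Of the 36, 16 had a difference above 0 and 20 below, with a median of -0.04. Whether they differ from the members in direction was not tested. None was called, and 2 of the 36 had an unadjusted p under 0.05, against 4.67% of all tested genes. Both are of the *Kcnq1* domain. *Kcnq1*, a potassium channel gene, had 39, 39, 12 and 11 reads, or 1.40, 1.30, -0.43 and -0.55. For *Kcnq1*, as for 15.8% of all tested genes, each *Id2*Δ/Δ library lay below each *Id2*+/+ library. Its log2 difference was -1.84 (standard error 0.64, adjusted p = 0.91 by limma with Benjamini-Hochberg adjustment), with -1.91 to -1.78 on dropping each library in turn. *Kcnq1ot1*, the paternally expressed RNA antisense to *Kcnq1* and, at 688 CPM, the most abundant gene of the list, had 9.64, 9.73, 9.52 and 8.54. Its log2 difference was -0.66 (standard error 0.27, adjusted p = 0.91 by limma with Benjamini-Hochberg adjustment), and it came to -0.17 without *Id2*Δ/Δ replicate 2. These genes overlap on opposite strands. *Cdkn1c*, which encodes the cell cycle inhibitor p57 in the same domain, had 5.35, 5.66, 4.97 and 5.43, with *Id2*Δ/Δ replicate 1 lowest, as for 5 of the members. *Cd81* and *Gnas* were the next most abundant of the list, at 420 and 360 CPM.

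**Figure D5:**
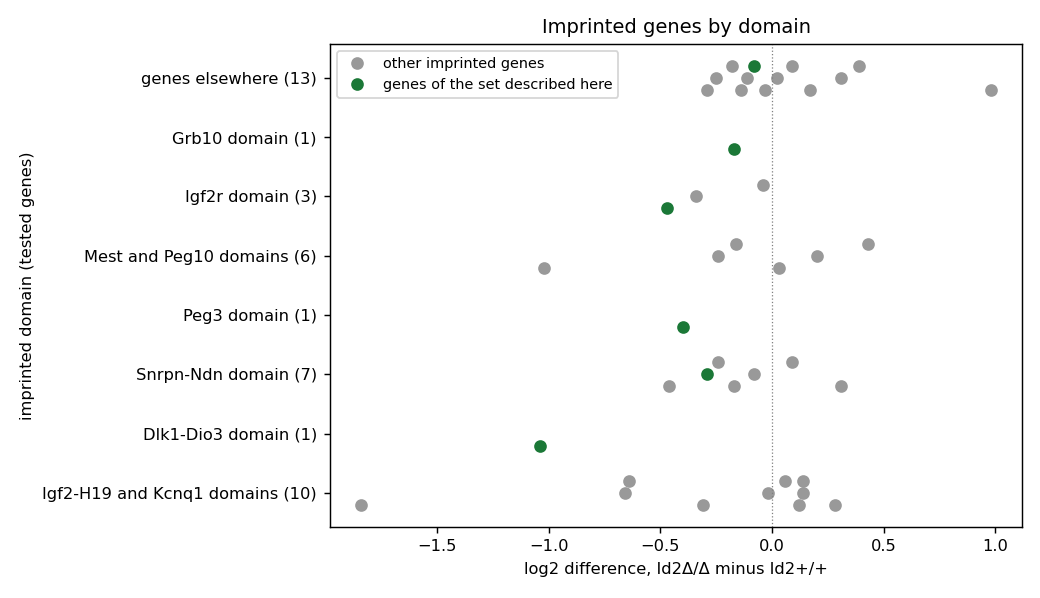
Log2 difference of *Id2*Δ/Δ from *Id2*+/+ HSCs for each of the 42 tested imprinted genes by chromosomal domain, with the number tested in brackets and the 6 tested members in green, small vertical offsets only separating points. Points lie on both sides of 0 in the *Kcnq1*, *Snrpn*-*Ndn* and *Mest* rows, and *Kcnq1* at -1.84 is the lowest.

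The imprinted gene network, a list of 16 imprinted genes that holds *Plagl1* and several other members, had 14 genes with a row and 11 tested. Of these, 3 had a difference above 0 and 8 below, with a median of -0.29. Since 5 of the 11 are members themselves, this is not a separate result.

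Chosen genes of the IGF pathway were listed by role. Among receptors, all 3 tested genes had a difference below 0, with a median of -0.27 and none called. *Igf1r* had 7.22, 7.33, 7.50 and 6.99, with both extremes in *Id2*Δ/Δ HSCs. *Insr*, the insulin receptor, had 6.13, 6.43, 6.35 and 5.67, with *Id2*Δ/Δ replicate 2 lowest, and the sign of *Insr* and *Igf1r* turned without that library, to 0.07 and 0.23. The ligand *Igf1* had 86, 49, 164 and 76 reads, so its replicate 1 was the higher in both genotypes, unlike that of *Meg3*. Of 7 binding proteins 3 were tested, all with a difference above 0, and *Igfbp5* showed 18, 0, 57 and 0 reads. Of 6 tested adaptors and effectors, *Grb10* included, 1 had a difference above 0 and 5 below, with a median of -0.08. *Irs2*, an adaptor of these receptors, had 4.85, 5.35, 4.37 and 5.09, the order of libraries also found for *Igf2r*, *Meg3* and *Ndn*. *Akt1* and *Pik3r1* were the most abundant of the list, at 314 and 226 CPM, with log2 differences of -0.06 and -0.02.

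Among 8 tested genes that keep imprints, 4 had a difference above 0 and 4 below, and none was called. An unadjusted p under 0.05 by limma was found for 2 of the 8, against 4.67% of all tested genes. *Zfp445*, a zinc finger protein that binds methylated imprint control regions, had 8.12, 7.90, 7.68 and 7.73, a log2 difference of -0.31 (standard error 0.12, adjusted p = 0.91 by limma with Benjamini-Hochberg adjustment). *Dnmt3a*, a de novo DNA methyltransferase, had 8.01, 7.91, 7.74 and 7.65, a log2 difference of -0.27 (standard error 0.11, adjusted p = 0.91 by limma with Benjamini-Hochberg adjustment). For both genes, as for 15.8% of all tested genes, the *Id2*Δ/Δ libraries were the lower pair. The difference of *Zfp445* came to -0.20 without *Id2*+/+ replicate 1. *Zfp57*, the related imprint factor, had 144, 164, 119 and 198 reads, with overlapping libraries. The maintenance methyltransferase *Dnmt1*, the cofactor *Trim28* and *Uhrf1* had log2 differences of 0.10, 0.08 and 0.16.

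Marker genes moved with some of these patterns. All 10 HSC markers were listed and tested, 8 with a difference below 0. Their summed level was 4640, 4530, 3170 and 3760 CPM, lowest in *Id2*Δ/Δ replicate 1, the library lowest for 5 of the members. Neutrophil markers, 10 of 10 listed, summed to 278, 170, 261 and 143 CPM, higher in replicate 1 of both genotypes, where those 5 members were lower. Megakaryocyte markers, 8 of 8 listed, summed to 546, 602, 614 and 689 CPM, and erythroid markers, 7 of 10 listed, to 57.4, 46.3, 45.0 and 67.3 CPM. Stromal cells express several imprinted genes strongly, and 4 of 10 stromal markers were listed, summing to 36.1, 28.8, 38.4 and 25.5 CPM, while *Col3a1*, *Lepr*, *Pdgfra*, *Lum*, *Dcn* and *Bglap* had no row. Endothelial markers, 7 of 8 listed, summed to 315, 353, 315 and 342 CPM. Macrophage markers, 7 of 8 listed, summed to 39.5 to 44.9 CPM, and 3 of 8 B-cell and 2 of 8 T-cell markers were listed, the latter without *Cd3e*, *Cd3d* and *Cd3g*. The part of other cells in the members' values was not tested, and in pooled cells fewer cells of a type and less RNA per cell cannot be told apart.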

How the data were processed

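RNA of sorted HSCs was sequenced in 4 libraries, 2 a genotype. The authors deposited log2 CPM values for 19354 genes, which look quantile-normalized, since all libraries share a median of 3.92. The submitters' processing notes name CASAVA 1.8.4, Trimmomatic 0.30, TopHat2 2.0.8, RSEM, STAR, mm9 and NCBIM37, without roles. How reads of near-identical copies or overlapping genes were shared, and strand use, are not given in the sources used here. In each listed gene, 2 or more libraries reach 4 reads, so a gene without a row may still have had reads.

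The log2 values were used without a pseudocount. The 15895 genes whose mean reached 1 CPM entered limma 3.58.1 in R 4.3.3 (lmFit, then eBayes with a trend on intensity, on genotype alone). Its p-values are two-sided, with Benjamini-Hochberg adjustment over these genes, and the threshold was an adjusted p under 0.05. An exact permutation test of 2 against 2 libraries cannot go below 0.333. Reads below 32 CPM were recovered from the rank of each distinct value in a library, where equal reads have equal values, and 62.1% of values lie there. The depth of each library was estimated from such reads and their listed CPM. Ratios of reads carry exact conditional binomial intervals and rates exact Poisson intervals. The limma fit and the recovery of reads were tested on simulated data.

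Gene positions and lengths are those of GENCODE M21 (GRCm38), found by Ensembl identifier for 99.7% of genes, since the values come without coordinates.

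The members and lists were chosen with earlier results of these data known. Named are all members, the genes of the other lists with an unadjusted p under 0.05, their 3 most abundant tested genes, and the 3 genes nearest in pattern to the 3 members of widest range. Not every gene the rule picks is printed, and *Airn*, *Gm26906*, *Dlk1*, *Igf2*, *Igf1*, *Igf1r*, *Insr*, *Irs2*, *Igfbp5*, *Cdkn1c*, *Zfp57* and the partners of *Impact* were added as overlapping, neighbouring or pathway genes after their values were seen. The alternatives varied the scale, the normalization, the filter, the trend, the libraries and a block on replicate number.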

Additional observations from a re-analysis of the deposited data

How the results depend on the processing

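No member passed the test under any alternative run, namely log2(CPM + 1), log2(CPM + 0.1), a shift to equal median ratios, no filter, a mean of at least 10 CPM, no intensity trend, the replicate block, or each library left out. The replicate block (the replicate number as a second term) called 1 of all tested genes, *C130089K02Rik*, and no member. Libraries with the same number deviated from their group means with a correlation of 0.0592 across genes (2 pairs). The labels do not tie a number to an experiment, so whether same-numbered libraries share an experiment is not known. Under the replicate block *Igf2r* had an adjusted p = 0.858 by limma. Over all genes, the number at an unadjusted p under 0.05 lay between 513 and 927 in the fits on all libraries and between 196 and 2516 with a library left out. The median difference of the 36 further imprinted genes was -0.13 without a filter and 0.0 at a mean of at least 10 CPM, and -0.1 to 0.03 with each library left out. The members' median was -0.23 on log2(CPM + 1), -0.23 at a mean of at least 10 CPM and -0.17 without a filter. With each library left out, the members' median went from -0.55 (without *Id2*+/+ replicate 1) to -0.03 (on dropping *Id2*Δ/Δ replicate 1), with -0.08 on dropping *Id2*+/+ replicate 2, and 1 to 5 members lay lower and 0 to 1 higher without overlap, counts that rise because a lone library overlaps less easily. *Peg3* went from -2.2 to 1.41 (0.34 without *Id2*+/+ replicate 2), *Meg3* from -2.16 to 0.07, *Impact* from -0.23 to 0.08, *Airn* from -0.87 to 0.19, *Igf1r* from -0.28 to 0.23 (0.03 without *Id2*+/+ replicate 2) and *Insr* from -0.61 to 0.07. *Grb10*, *Ndn* and *Igf2r* kept their sign in these fits. When an arm holds 1 library, limma assumes that it varies like the other genotype. The causes were not tested. Reads of 0 to 33 a library limit *H19*, *Rian* and *Plagl1*.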
